A study of Homo sapiens with 24 samples.

Results

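The genes described here encode voltage-gated calcium channels, the channels and sensors that move calcium into and out of the endoplasmic reticulum, and the pumps that clear calcium from the cytosol. They were taken by symbol alone: the CACNA1, CACNA2D, CACNB and CACNG subunits, ORAI1 to ORAI3, STIM1 and STIM2, the ITPR and RYR receptors, and the ATP2A and ATP2B pumps. The symbols matched 47 rows of a table of 36468 rows. With the first row kept for each symbol and a total of at least 10 counts over all libraries, 44 genes remained, and all 44 were among the 29377 rows tested. Every one had a mean count of 10 or more, 22 had a mean count of 1000 or more, and 6 had a mean count under 50. Only CACNA1S had a library with a count of 0. CACNA1C, CACNA2D4 and ORAI1 each had a second row under the same symbol, and the row used held 45.5%, 64.9% and 61.3% of the counts of the pair.

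A voltage-gated calcium channel is built around a pore subunit (CACNA1 genes) that opens when the membrane depolarizes. An alpha2delta subunit (CACNA2D genes) raises the amount of channel at the surface, a cytosolic beta subunit (CACNB genes) assists its trafficking and gating, and several gamma genes (CACNG) encode TARPs, which accompany AMPA-type glutamate receptors. In sensory neurons the N-type channel, with its pore subunit CACNA1B, couples the action potential to transmitter release, and CACNA2D1 is the binding site of gabapentin and pregabalin. Calcium is also held in the endoplasmic reticulum, from which IP3 receptors (ITPR genes) and ryanodine receptors (RYR genes) release it. When the store empties, the sensors STIM1 and STIM2 open ORAI channels in the plasma membrane. SERCA pumps (ATP2A genes) refill the store and PMCA pumps (ATP2B genes) extrude calcium from the cell.

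All libraries came from wild-type H9WAO9 cells, a human embryonic stem cell line, that had been taken through vagal neural crest precursors and spheroids to sensory neurons and matured for weeks before treatment. The 4 groups were vehicle (0.1% bovine serum albumin in PBS), TGF-β at 2 ng/ml, IL-4 at 10 ng/ml with IL-13 at 3 ng/ml, and IL-6, each with 1 library in each of 6 batches (n = 6). Exposure lasted 5 days, except that the dose and duration of IL-6 are not given in the sources used here. All groups therefore share 1 line and 1 genotype, and poly(A) RNA was read from whole dissociated cultures, in which neurons are mixed with other cells. Library totals ran from 33342682 to 39817784 counts (median 35775126). The labels number the batches and say no more of them, so p-values measure the spread between these libraries, which may be partly technical. The comparisons ask whether each cytokine altered the transcripts of this machinery, since the study measured calcium responses of the same cultures.

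The bases upstream of 4 of the genes are shown because the results below turn on them. ITPR3 passed the test between the cytokines and ORAI3 came next to it, STIM2 had the smallest p under TGF-β, and ATP2A2 was higher under TGF-β in every batch. Each sequence is the 250 bases before a RefSeq gene start on GRCh38.p14, on the gene's own strand, which is the plus strand for all of them. Capitals mark matches to motifs of the pathways that the cytokines use. These were TTCNNNNGAA, the spacing preferred by STAT6 downstream of IL-4 and IL-13, TTCNNNGAA, the common STAT spacing, and CAGACA, a SMAD box, each searched on both strands.
ITPR3, chr6:33621072-33621321: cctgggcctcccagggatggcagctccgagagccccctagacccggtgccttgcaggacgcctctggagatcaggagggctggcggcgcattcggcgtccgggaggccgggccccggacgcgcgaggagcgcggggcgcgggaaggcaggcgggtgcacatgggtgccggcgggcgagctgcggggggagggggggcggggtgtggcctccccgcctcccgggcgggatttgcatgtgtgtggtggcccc
ORAI3, chr16:30948818-30949067: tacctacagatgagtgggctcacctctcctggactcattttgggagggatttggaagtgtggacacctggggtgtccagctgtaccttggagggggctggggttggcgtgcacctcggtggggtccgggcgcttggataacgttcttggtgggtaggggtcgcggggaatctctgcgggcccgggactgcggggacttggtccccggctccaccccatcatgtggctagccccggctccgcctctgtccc
STIM2, chr4:26860591-26860840: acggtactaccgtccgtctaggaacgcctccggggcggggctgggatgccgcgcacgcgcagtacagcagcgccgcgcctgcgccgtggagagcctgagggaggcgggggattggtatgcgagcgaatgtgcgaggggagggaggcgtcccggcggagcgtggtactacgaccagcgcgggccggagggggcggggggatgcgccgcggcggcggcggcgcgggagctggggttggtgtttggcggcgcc
ATP2A2, chr12:110280366-110280615: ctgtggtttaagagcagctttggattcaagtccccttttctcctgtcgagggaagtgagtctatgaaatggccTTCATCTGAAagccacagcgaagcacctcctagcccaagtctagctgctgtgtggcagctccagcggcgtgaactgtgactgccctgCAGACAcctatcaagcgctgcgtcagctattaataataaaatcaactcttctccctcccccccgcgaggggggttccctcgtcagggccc

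None of these motifs occurred in the windows of ITPR3, ORAI3 or STIM2, which says only that those letters are not in these 250 bases. The ATP2A2 window held TTCATCTGAA starting 177 bases before the gene start and CAGACA starting 90 bases before it. ATP2A2 also had a second listed start downstream, whose window held none of the 3 motifs. RefSeq windows were at hand for 32 of the 44 genes, 51 windows in all. TTCNNNNGAA was present in 5 of these 51 (9.8%) against 5.38% of 35097 windows genome-wide, with 3 of the 5 from CACNB2 and the others from ATP2A2 and CACNB4. TTCNNNGAA was present in 3 (5.88%) against 6.56%, and CAGACA in 4 (7.84%) against 13.6%. The 4 with CAGACA were windows of ATP2A2, ATP2B2, CACNB2 and STIM1. The STIM1 match was on the other strand (TGTCTG), starting 138 bases before 1 of its listed starts. The windows of these genes were richer in G and C, with a median of 68.8% against 58% for all windows.

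The cultures expressed neuronal genes in every library (TUBB3, neuronal tubulin, 7989 to 43547 counts). Of the 9 fibroblast markers, COL1A1 had 25627 to 272161 counts and COL1A2 58894 to 155556, while LUM had 193 to 8134 and TWIST1 37 to 150. Low counts also came from other lists. Of the 8 skeletal muscle markers, MYF5 was at 0 throughout and MYOD1 and MYOG reached at most 25 and 12 counts, while TNNT1 had 138 to 612 and CKM 64 to 169. Of the 4 pluripotency markers, POU5F1 and NANOG reached at most 1 and 5 counts, while DPPA4 had 236 to 1832 and LIN28A 31 to 121. Some libraries stood apart from the rest. The summed level of 13 neuronal markers was 2034 to 3742 CPM (counts scaled to the library total) in batch 1 and 4938 to 14191 in the other batches. The vehicle library of batch 2 lay closer to the treated libraries of batches 3 and 4 than to those of its own batch. Over the 44 genes its median absolute difference was 0.662 log2 units to its own batch, 0.165 to batch 3 and 0.168 to batch 4, and 31 genes were above and 6 below all 3 treated libraries of batch 2. For the other vehicle libraries the difference to the own batch was 0.0804 to 0.231. The vehicle library of batch 4 was at 0.226, with 9 genes above and 19 below its treated libraries. It was closest to its own batch, and its difference to the treated libraries of batch 2 was 0.348. An exchange of vehicle libraries between batches would alter every value against vehicle and was not tested. The main results against vehicle are also given without these libraries.

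Levels between genes were compared as CPM per kilobase of exon in the 6 vehicle libraries (mean ± SD). The TARP gene CACNG4 led at 52.4 ± 15.2, followed by ATP2A2, the widespread SERCA2 pump, at 34.4 ± 4.72 and CACNG7 at 32.1 ± 8.44. CACNA2D4 was the lowest of the 44, at 0.0608 ± 0.016.

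Among the pore subunits of the P/Q, N and R types, CACNA1B (N-type) led at 7.74 ± 3.5, CACNA1E (R-type) followed at 3.32 ± 1.76, and CACNA1A (P/Q-type) was at 0.777 ± 0.268. The low value of CACNA1A depended on the length used, since its exon union is 43150 bases and its longest transcript 8657. With the longest transcript as length the 3 means were 7.83, 4.45 and 3.87, in the same order. CACNA1B exceeded CACNA1E in all 24 libraries, by 1.99-fold to 3.06-fold in vehicle. Of the low-threshold T-type pores, CACNA1H was at 14.02 ± 5.58 and exceeded CACNA1G (3.87 ± 1.65) in all 24 libraries, and CACNA1I was at 1.02 ± 0.376. The L-type pores were low, with CACNA1C at 0.997 ± 0.291, CACNA1D at 0.42 ± 0.188, and the retinal and skeletal muscle forms CACNA1F and CACNA1S at 0.128 ± 0.0585 and 0.0979 ± 0.0552. Summed over each role, T-type pores came to 18.9, P/Q, N and R types to 11.8 and L-type to 1.64. The CACNA1C row used held 45.5% of the counts of its symbol. Its level and the L-type sum leave out the second row, so both are understated if that row counts the same gene.

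CACNA2D1 was at 13.5 ± 6.69, CACNA2D2 at 9.75 ± 2.8 and CACNA2D3 at 8.13 ± 3.18. These neighbours did not separate, since CACNA2D1 was above CACNA2D2 in 4 of 6 vehicle libraries and in 17 of all 24. The beta subunit CACNB3 (13.2 ± 3.48) was above CACNB1 (7.03 ± 2.54) in every library, and CACNG4 was above CACNG7 in every library.

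On the store side, ATP2A2 exceeded ATP2A3, another SERCA gene, in all 24 libraries and by 22.5-fold to 94.6-fold in vehicle. ITPR3 led the IP3 receptors at 2.05 ± 0.525, with ITPR2 at 1.04 ± 0.285 and ITPR1 at 0.567 ± 0.218, although ITPR3 was above ITPR2 in only 17 of 24 libraries. RYR2 (1.44 ± 0.53) was above RYR3 (0.837 ± 0.354) in all 24. STIM2 (9.64 ± 3.95) and ORAI2 (9.55 ± 1.24) were not separated, each being higher in 3 of 6 vehicle libraries. The same held for the PMCA genes ATP2B1 (16.6 ± 5.4) and ATP2B4 (13.9 ± 3.7). The order within a role depended on the exon length used for the store-operated genes, where STIM1 led STIM2 (16.69 against 15.96) when the longest transcript replaced the union of exons, and for ITPR1 and ITPR2, which changed places.

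**Figure D1:**
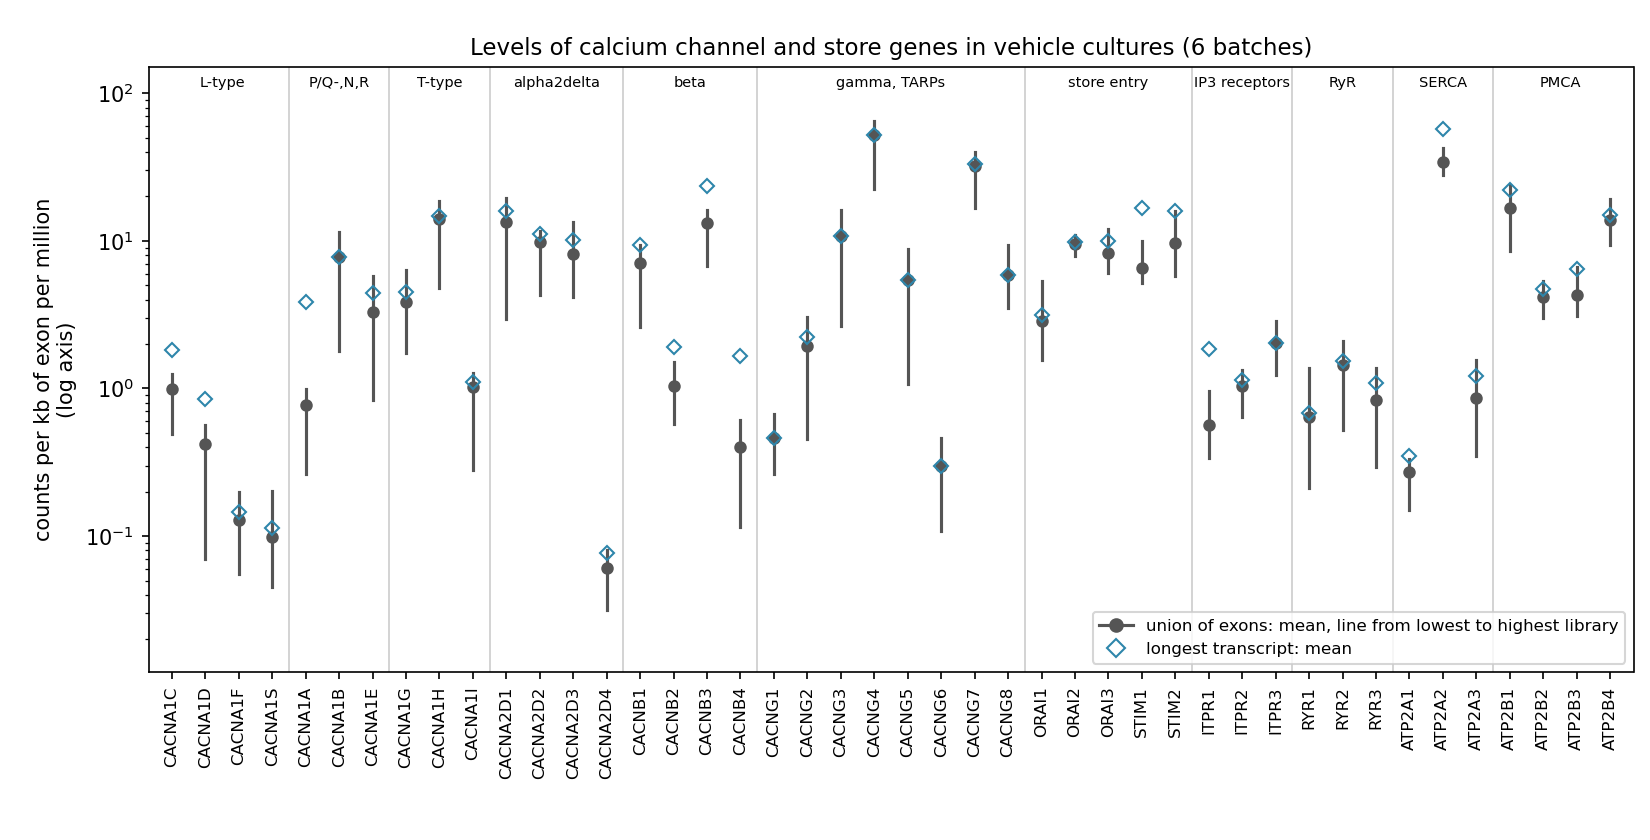
CPM per kilobase of exon (log axis) for the 44 genes in the 6 vehicle libraries, grouped by role. CACNG4 (52.4) and ATP2A2 (34.4) sit at the top and CACNA2D4 (0.0608) at the bottom, and the 6 libraries of many genes spread over more than the gap to the next gene of the same role.

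The genes differed more between batches than between treatments. Levels within a gene are given as log2 of the normalized count plus 1. The range of the 6 batch means was wider than the range of the 4 group means for 44 of 44 genes, with a median of 1.57 against 0.26 log2 units. All 4 batch 1 libraries lay below the other 20 for 12 of the 44 genes (27.3%), against 8.86% of rows with a mean count of 10 or more. These 12 were CACNA1B, CACNA1E, CACNA1G, CACNA1H, CACNA1I, CACNA2D1, CACNB1, CACNB3, CACNB4, CACNG2, CACNG3 and CACNG4, and the neuronal marker list was lowest in the same 4 libraries. A further 5 genes (11.4%, background 10.2%) lay above the other 20 in batch 1, namely ATP2B3, ITPR1, ORAI3, STIM1 and STIM2. In a whole culture, fewer cells of a type and less RNA per cell cannot be told apart.

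CACNA1B shows the size of this difference. Its counts ran from 650 to 4892, and its level in vehicle was 9.43 at the lowest, 11.48 at the median and 12.06 at the highest. The lowest vehicle library was that of batch 1. CACNA2D1 ran from 937 to 7045 counts, with vehicle levels of 10.05, 12.28 and 12.67, again with batch 1 lowest.

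**Figure D2:**
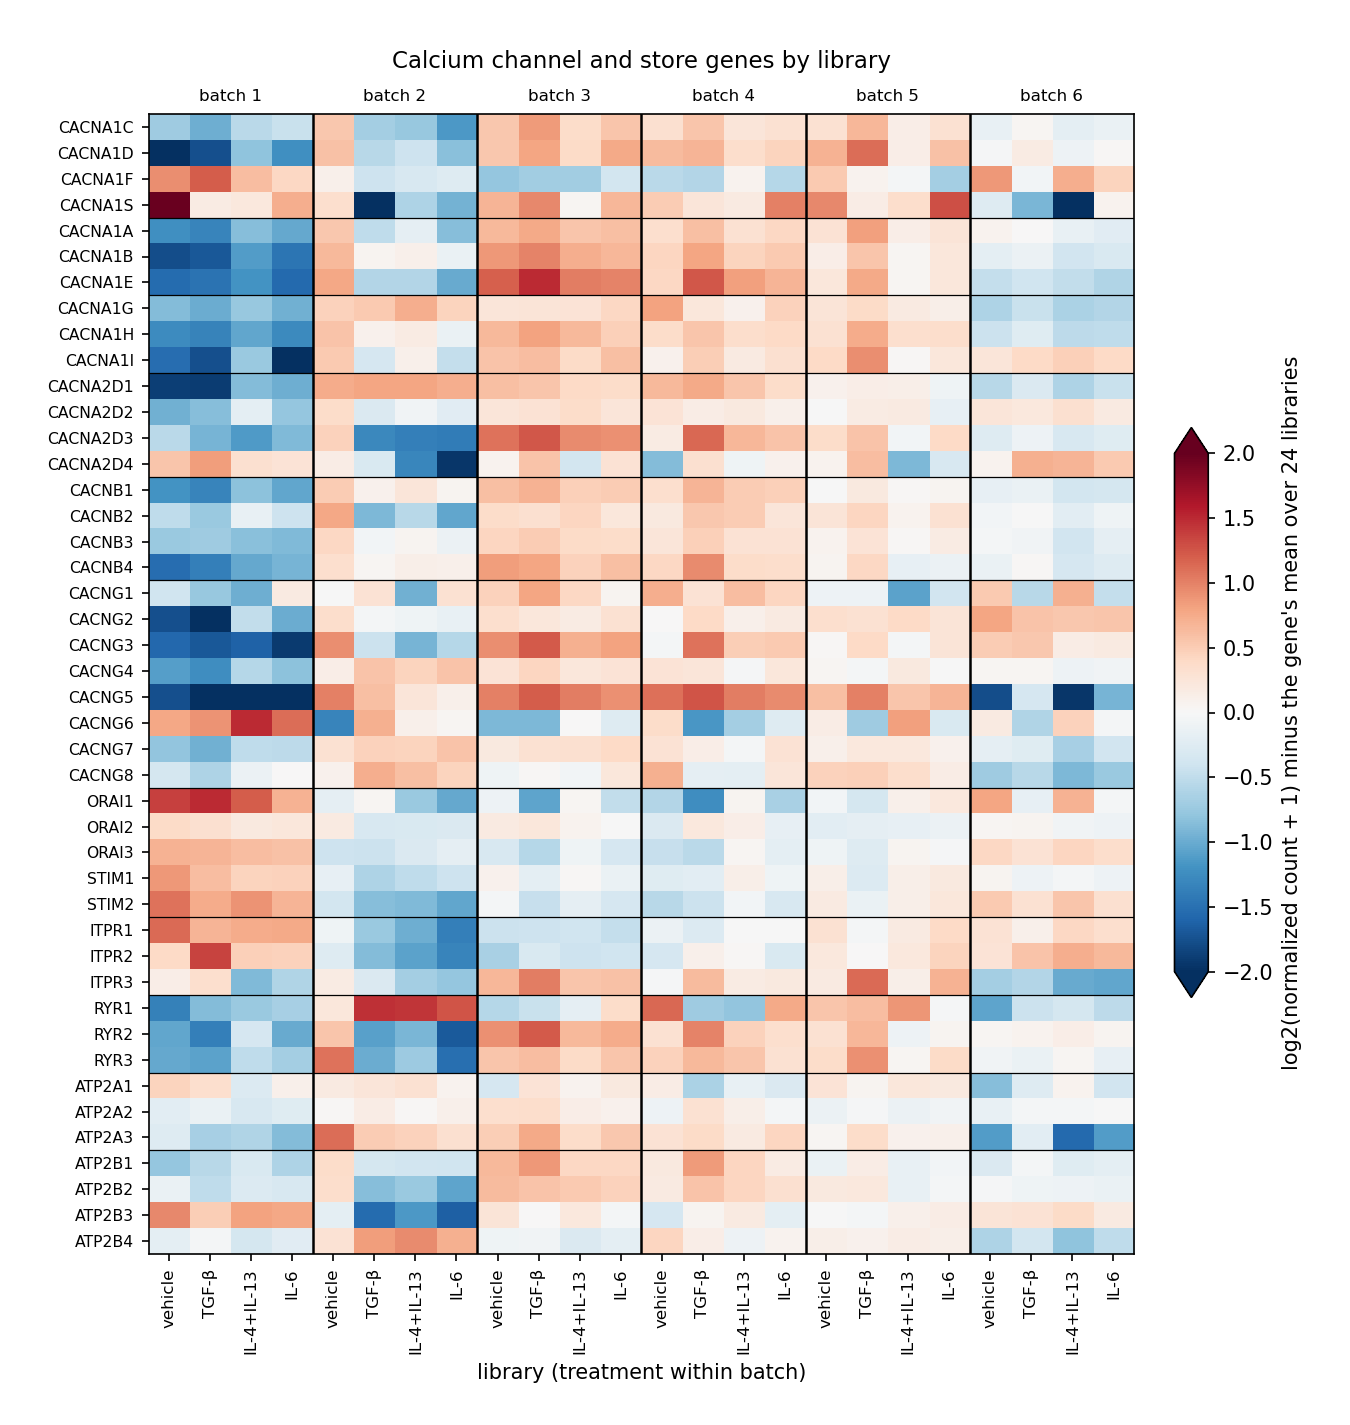
Level of each of the 44 genes in each of the 24 libraries, as the log2 difference from the mean of that gene, with libraries ordered by batch and genes by role. The 4 libraries of batch 1 are low for most pore and auxiliary subunits and high for STIM1, STIM2, ORAI3 and ITPR1, and the vehicle library of batch 2 differs from the 3 treated libraries beside it.

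Differences between treatments were tested within batches with edgeR's quasi-likelihood test and Benjamini-Hochberg adjustment over all 29377 rows, and calling a row took both an adjusted p under 0.05 and a fold change of more than 1 log2 unit. No calcium channel or store gene was called against vehicle or between the cytokines. The background was 0.143% of rows called under TGF-β, 0.371% under IL-4+IL-13, 0% under IL-6 and 1.18% for TGF-β against IL-4+IL-13. At an adjusted p under 0.05 with no fold limit, 0 of the 44 genes passed under each cytokine against vehicle, where 0.347%, 0.633% and 0% of all rows did, and 1 (ITPR3) passed between the cytokines, where 2.98% did. DESeq2 also passed 0 of the 44 against vehicle.

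The intervals bound changes of the whole-culture mean in this fit, which includes the vehicle library of batch 2. They do not bound a change confined to 1 type of cell. The median standard error of a log2 fold change over the 44 genes was 0.16, and the 95% interval lay inside ±1 for 42 genes under TGF-β, 41 under IL-4+IL-13 and 41 under IL-6. It lay inside ±0.5 for 25, 23 and 21 of them. The intervals reaching beyond 1 belonged to CACNA1S and CACNA2D4 under TGF-β, to CACNA1S, CACNA2D3 and CACNG6 under IL-4+IL-13, and to CACNA1S, RYR2 and RYR3 under IL-6. The median log2 fold change of the 44 genes was -0.01, -0.09 and -0.15, beside medians of all rows of -0.01, -0.01 and -0.01. Without the vehicle libraries of batches 2 and 4 the medians of the 44 were 0.08, 0.01 and -0.04.

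**Figure D3:**
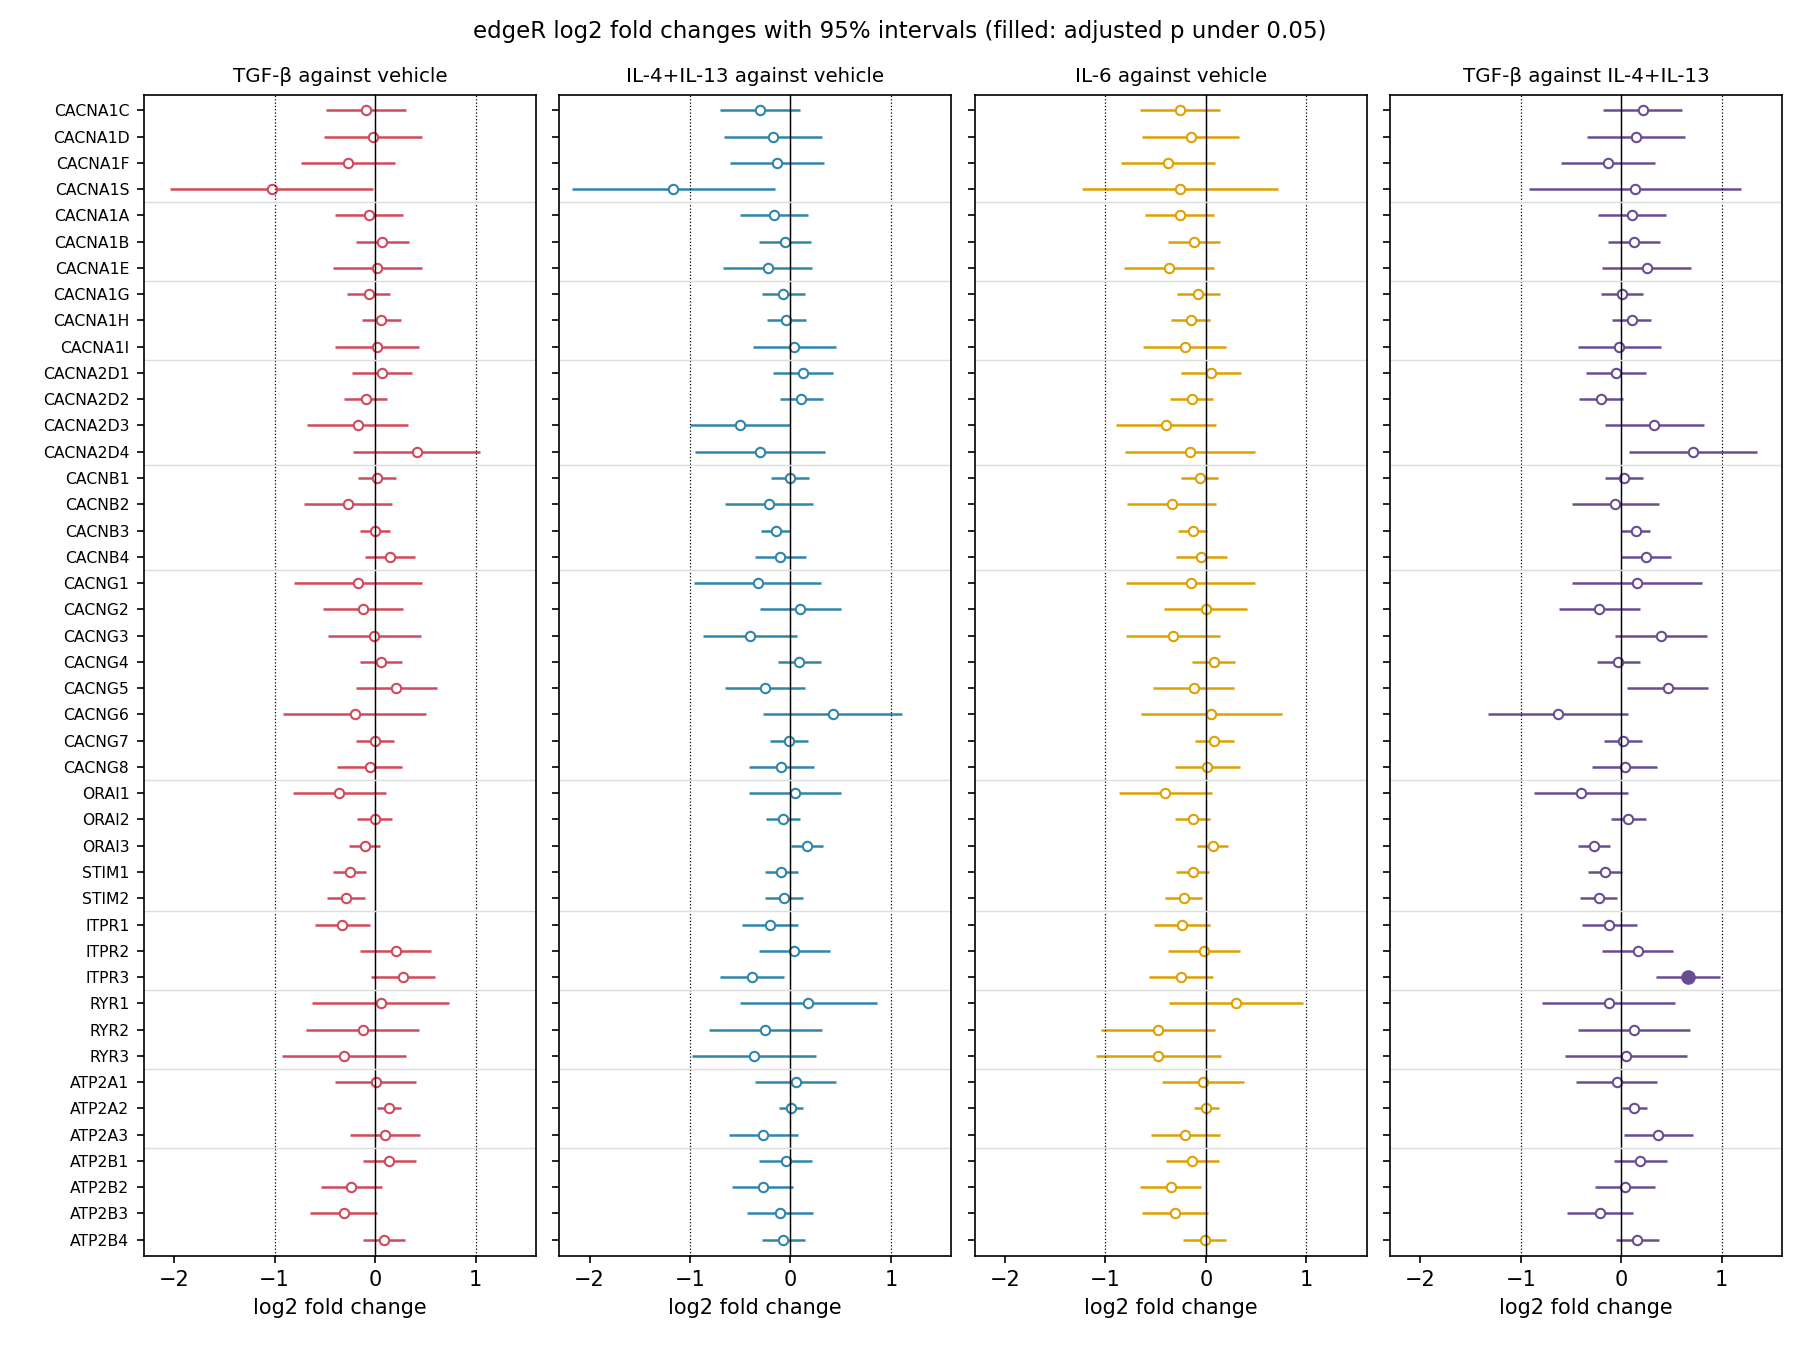
Log2 fold change with its 95% interval for each of the 44 genes in the 4 comparisons, ordered by role. All intervals except that of ITPR3 for TGF-β against IL-4+IL-13 belong to adjusted p values of 0.05 or more, and CACNA1S has the widest.

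The N-type pore CACNA1B and its gabapentin-binding partner CACNA2D1 had fitted log2 fold changes between -0.12 and 0.12 under every cytokine. For CACNA1B the lowest, median and highest levels were 9.503, 11.51 and 12.19 under TGF-β, then 10.08, 11.27 and 11.93 under IL-4+IL-13, and 9.74, 11.24 and 11.86 under IL-6. The log2 fold changes were 0.07 (95% interval -0.19 to 0.33), -0.06 (-0.32 to 0.21) and -0.12 (-0.38 to 0.15). For CACNA2D1 the levels were 10.03, 12.28 and 12.72 under TGF-β, then 11.06, 12.19 and 12.72 under IL-4+IL-13, and 10.96, 12.07 and 12.67 under IL-6. Its log2 fold changes were 0.07 (-0.23 to 0.37), 0.12 (-0.18 to 0.43) and 0.05 (-0.25 to 0.35). All groups overlapped for both genes. In batch 1, where both genes were lowest, CACNA2D1 was higher than vehicle by 1.01 log2 units under IL-4+IL-13 and by 0.91 under IL-6, and in the other 5 batches these differences ran from -0.28 to 0.12. The neuronal marker list in batch 1 was also lower in vehicle (2258 CPM) than under IL-4+IL-13 (3742) or IL-6 (3058), and its part in this difference was not tested.

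Under TGF-β the lowest p values among the 44 belonged to the store sensors, and none passed the adjustment. STIM2 had 1067 to 5058 counts, and its level ran from 10.69 (median 11.33) to 12.33 in vehicle and from 10.40 (median 10.97) to 11.99 under TGF-β. The groups overlapped, and TGF-β was the lower in 5 of 6 batches, batch 4 being the exception. The log2 fold change was -0.29 (SE 0.089, 95% interval -0.48 to -0.10), with an adjusted p of 0.26. STIM1, with 1596 to 4574 counts, ran from 11.07 (median 11.39) to 12.19 in vehicle and from 10.71 (median 11.12) to 11.94 under TGF-β. It was also lower in 5 of 6 batches, with the exception again in batch 4, at a log2 fold change of -0.25 (SE 0.079, -0.42 to -0.09, adjusted p = 0.281). The p of both genes before adjustment stayed under 0.05 with each batch left out in turn and with the vehicle libraries of batches 2 and 4 left out.

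Their channel partner ORAI3 was lower under TGF-β in all 6 batches, with differences of -0.24 to -0.01 log2 units, but the fold change was only -0.11 (adjusted p = 0.872). It was the only gene of the 44 below vehicle in every batch, beside 3.22% of rows with a mean count of 10 or more. ATP2A2, the pump that refills the store, was the only one above vehicle in every batch, beside 2.09% of rows. Its level ran from 13.86 (median 13.97) to 14.42 in vehicle and from 13.94 (median 14.14) to 14.43 under TGF-β, which gave a log2 fold change of 0.14 (SE 0.058, 0.01 to 0.26, adjusted p = 0.583). Its 6 differences were between 0.02 and 0.40, the largest in batch 4.

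ITPR1, the IP3 receptor best known from Purkinje cells, ran from 8.66 (median 9.19) to 10.23 in vehicle and from 8.34 (median 8.93) to 9.76 under TGF-β. The overlap was broad, and its log2 fold change was -0.32 (-0.60 to -0.05, adjusted p = 0.526). CACNA1S, the pore of skeletal muscle, had 13 to 56 counts in vehicle and 0 to 29 under TGF-β, with a fitted log2 fold change of -1.03 (-2.04 to -0.02, adjusted p = 0.669). The summed skeletal muscle markers were also lower under TGF-β in 5 of 6 batches (14.6 to 23.04 CPM against 17.1 to 27.6), with MYF5 at 0 in every library and TNNT1, CKM, TNNI1, MYH3 and ACTA1 counted in every one, and their part in the CACNA1S value was not tested. ATP2B3, ITPR3 and ATP2B2 completed the 8 smallest p values, with adjusted p values of 0.723 to 0.817.

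In all, 1 gene was higher (2.27%, background 2.42%) and 4 were lower (9.09%, background 4.87%) at an unadjusted p under 0.05. This count leaned on the vehicle library of batch 2: without it 8 genes were higher and 2 lower, and without those of batches 2 and 4, 5 were higher (ATP2B1, CACNA1E, CACNA1H, ITPR2 and ITPR3) and 2 lower (STIM1 and STIM2). Without batch 1, 0 were higher and 2 were lower, again STIM1 and STIM2. The shares of all rows at that p in these fits are not given here, so the counts cannot be set beside a background. Without the vehicle library of batch 2 the log2 fold changes of ITPR1 and CACNA1S were -0.18 (adjusted p = 0.606) and -0.87 (0.57). Without those of batches 2 and 4, that of ATP2A2 was 0.10 (adjusted p = 0.728). In DESeq2 5 of the 44 had an unadjusted p under 0.05, as 2420 of the 29377 rows did. The 8 Schwann and satellite glia markers summed to 64 to 120.04 CPM in vehicle and 87.5 to 176 under TGF-β, higher in 6 of 6 batches. The 9 fibroblast markers summed to 3381 to 9820 in vehicle and 4355 to 12555 under TGF-β, higher in 5 of 6, and the part of either list in these values was not tested.

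Under IL-4+IL-13, 1 of the 44 genes was higher (2.27%, background 4.42%) and 4 were lower (9.09%, background 4.68%) at an unadjusted p under 0.05, and none passed the adjustment. ITPR3 was at 8.71 (median 9.54) to 10.05 in vehicle and at 8.38 (median 9.10) to 9.94 under IL-4+IL-13. The ranges overlapped, with IL-4+IL-13 lower in 5 of 6 batches, and the log2 fold change was -0.39 (SE 0.153, -0.71 to -0.06, adjusted p = 0.437). The largest differences were -1.02 in batch 1 and -0.85 in batch 2, and the other 4 lay between -0.33 and 0.18. ORAI3 moved the other way in the estimate, from 9.12 (median 9.38) to 10.28 in vehicle to 9.30 (median 9.64) to 10.21, with a log2 fold change of 0.17 (0.01 to 0.32, adjusted p = 0.515). It was higher in 5 of 6 batches, by most in batch 4 (0.50).

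CACNA1S was lower in all 6 batches, the only one of the 44 to be on one side throughout, beside 2.08% of rows lower and 2.85% higher in every batch. It had 0 to 18 counts under IL-4+IL-13 against 13 to 56 in vehicle and a fitted log2 fold change of -1.17 (adjusted p = 0.462). Skeletal muscle markers were lower in 5 of 6 batches here too. So were fibroblast markers (median log2 ratio -0.28, lowest -1.15) and smooth muscle markers (-0.27), and the part of these lists in the values under IL-4+IL-13 was not tested. CACNB3, a beta subunit, had a log2 fold change of -0.15 (-0.29 to -0.0016, adjusted p = 0.546), and CACNA2D3, an alpha2delta subunit, one of -0.50 (-1.004 to -0.0024, adjusted p = 0.548). The CACNA2D3 value rested on batch 2, where the difference was -1.82, and it was -0.16 (adjusted p = 0.869) without that batch. Without the vehicle library of batch 2, 1 gene was higher (CACNA2D2) and 1 lower (ATP2B4), neither of them among the 5 above. Without those of batches 2 and 4, 1 was higher (CACNA2D2) and 4 were lower, of which CACNA1S, CACNA2D3 and ITPR3 are among the 5 and CACNG3 is not. Without batch 1, 1 was higher (ORAI3) and 2 were lower (CACNA1D and CACNB4). For these fits too the shares of all rows at that p are not given here. ATP2B2, CACNG3 and ATP2A3 followed, with adjusted p values of 0.604 to 0.659.

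Against IL-6 the data gave the least. No row of the table passed an adjusted p under 0.05 in edgeR, where 1400 had an unadjusted p under 0.05, while DESeq2 passed 132 rows, none of them among the 44. At an unadjusted p under 0.05, 0 genes were higher (background 2.32%) and 2 were lower (4.55%, background 2.44%). ATP2B2, a neuronal PMCA pump, ran from 10.23 (median 10.56) to 10.999 in vehicle and from 9.32 (median 10.28) to 10.84 under IL-6, with a log2 fold change of -0.35 (-0.65 to -0.05, adjusted p = 0.85). The batch 2 difference of -1.40 carried it, and without batch 2 the value was -0.12 (adjusted p = 1.0). STIM2 ran from 10.21 (median 11.20) to 11.94 under IL-6, with a log2 fold change of -0.22 (-0.41 to -0.03, adjusted p = 0.85), and -0.13 (adjusted p = 1.0) without batch 2. None of the 44 was on one side in every batch, beside 1.45% of rows higher and 1.25% lower. Without the vehicle library of batch 2, 0 were higher and 0 lower at that p. Without those of batches 2 and 4, 1 was higher, RYR1, named after its value was seen, and ATP2B2 and STIM2 were again the 2 lower. All-row shares at that p in these fits are not given here. The estimates were below 0 for 36 of 44 genes, beside 52.7% of all rows, and for 27 of 44 without the vehicle libraries of batches 2 and 4.

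The 1 gene to pass the adjustment did so between the cytokines, which is 2.27% of the 44 beside 2.98% of all rows. ITPR3, on chromosome 6 (33621322 to 33696562), encodes the type 3 IP3 receptor, which releases calcium from the store after phospholipase C is activated. Its level under TGF-β was 8.80 at the lowest, 9.87 at the median and 10.53 at the highest, against 8.38, 9.10 and 9.94 under IL-4+IL-13. The group ranges overlapped, but within every batch TGF-β was the higher. The counts under TGF-β and IL-4+IL-13 were 754 and 385 in batch 1, 523 and 433 in batch 2, 1426 and 900 in batch 3, 943 and 810 in batch 4, 1440 and 731 in batch 5, and 457 and 335 in batch 6. Within batches the differences on the log2 scale were 1.21, 0.40, 0.48, 0.47, 1.02 and 0.42, so batches 1 and 5 stood above the other 4. ITPR3 was 1.58-fold higher under TGF-β (log2 fold change 0.66, SE 0.153, 0.34 to 0.98), with an adjusted p of 0.0185 in edgeR and 0.00168 in DESeq2.

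Against vehicle ITPR3 stood between, with 0.28 (-0.04 to 0.60, adjusted p = 0.773) for TGF-β and the -0.39 given above for IL-4+IL-13, both comparisons sharing the vehicle libraries. Without the vehicle library of batch 2 the TGF-β value was 0.41 (adjusted p = 0.258). The adjusted p between the cytokines ran from 0.0099 to 0.0834 with single batches left out. It stayed under 0.05 without batch 2 or batch 4, and was 0.0834, 0.0682, 0.0672 and 0.0593 without batches 1, 3, 5 and 6. It was 0.0504 when the IL-6 libraries were left out and 0.00285 without the vehicle libraries of batches 2 and 4. Fibroblast markers, at 2850 to 6233 CPM under IL-4+IL-13, were also higher under TGF-β in 6 of 6 batches (median log2 ratio 0.47, range 0.33 to 1.40), as were Schwann and satellite glia markers, at 66 to 115 CPM under IL-4+IL-13 (0.47, 0.22 to 0.82), while neuronal markers were higher in 4 of 6, and their part in the ITPR3 value was not tested. Of its exon bases 1025 (10.4%) overlap UQCC2 on the opposite strand, which had a log2 fold change of -0.14 (adjusted p = 0.376), and whether counting used strand is not given in the sources used here.

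ORAI3, on chromosome 16 (30949068 to 30954938), encodes a channel of store-operated entry and came next. It ran from 9.02 (median 9.25) to 10.27 under TGF-β and from 9.30 (median 9.64) to 10.21 under IL-4+IL-13, and TGF-β was the lower in 5 of 6 batches, with differences between -0.58 and 0.06. The log2 fold change was -0.27 (SE 0.075, -0.43 to -0.11). The adjusted p of 0.0563 in edgeR missed the threshold and that of DESeq2, 0.0174, passed it. Much of ORAI3, 1397 exon bases (52.9%), overlaps another annotated gene on the same strand, so its counts may hold reads of both.

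**Figure D4:**
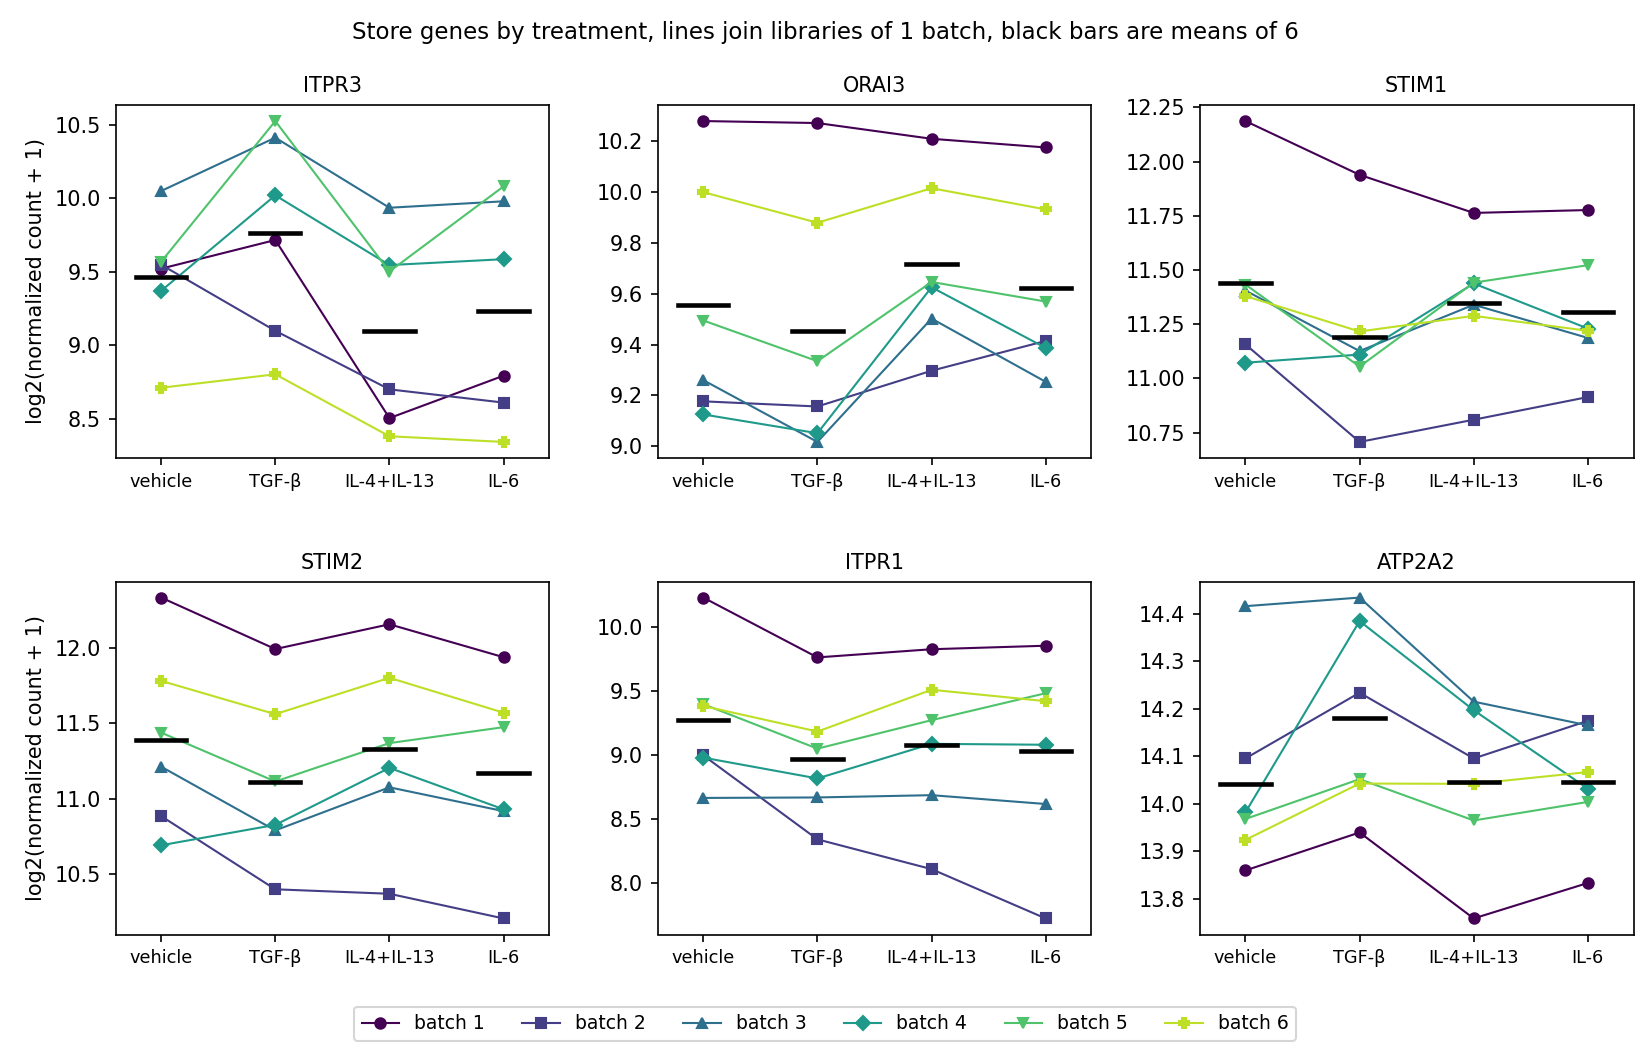
Level (log2 of the normalized count plus 1) of ITPR3, ORAI3, STIM1, STIM2, ITPR1 and ATP2A2 in each library by group, with lines joining libraries of 1 batch. The ITPR3 lines drop from TGF-β to IL-4+IL-13 in all 6 batches, by 0.40 to 1.21, while the ORAI3 lines go up in 5 of 6.

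At an unadjusted p under 0.05, 5 of the 44 genes were higher under TGF-β than IL-4+IL-13 (11.4%, background 5.04%) and 2 were lower (4.55%, background 7.2%). Beside ITPR3 the higher ones were ATP2A2 (0.13, 6 of 6 batches), ATP2A3 (0.37, 5 of 6), and CACNA2D4 (0.72, 6 of 6) and CACNG5 (0.46, 5 of 6), of which the last 2 were picked out after their values were seen. Adjusted p values of these were 0.302 to 0.357. The lower ones were ORAI3 and STIM2 (-0.22, adjusted p = 0.263, 5 of 6). Without batch 2 these counts were 12 and 7, and without its vehicle library alone 12 and 6. All-row shares at that p in these fits are not given here. Of all rows, 874 passed an adjusted p under 0.05 in the main fit. That number was 1423 without batch 2 and 1443 without its vehicle library, so passing rows rose in the whole table too. The vehicle libraries bear on this comparison through the batch terms and the spread only. With those of batches 2 and 4 left out, 5 of the 44 passed an adjusted p under 0.05: ITPR3, CACNG3 (0.41, adjusted p = 0.00661), ORAI3 (-0.27, 0.0249), CACNA2D3 (0.32, 0.0287) and STIM2 (-0.22, 0.0368), as 1676 of all rows did. CACNG3, a TARP, was higher under TGF-β in 5 of 6 batches and CACNA2D3 in 6 of 6.

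By role, the estimates of the store-operated genes were at or below 0 under TGF-β for 5 of 5 (median -0.25), those of the SERCA pumps above 0 for 3 of 3 (median 0.10), and those of the N, P/Q and R pores near 0 (median 0.02). All 4 L-type pores had estimates below 0 under each cytokine, with medians of -0.18 (TGF-β), -0.24 (the pair of interleukins) and -0.25 (IL-6). Under IL-4+IL-13 so did all 3 P/Q, N and R pores (-0.17), all 4 beta subunits (-0.12) and all 4 PMCA pumps (-0.09), beside 51.5% of all rows. That share was 52.6% for TGF-β and 52.7% for IL-6. Of the L-type pores, CACNA1D had a lower level under TGF-β than in vehicle only in batch 2 (7.32 against 8.46). CACNA1C was lower only in batches 1 (8.66 against 8.93) and 2 (8.95 against 10.17). CACNA1F and CACNA1S, with mean counts of 27.8 and 18.5, were lower in most batches. All these role values include the vehicle library of batch 2, and their direction by role without that library is not given here. Over all the genes together, estimates below 0 numbered 25 under TGF-β, 32 under IL-4+IL-13 and 36 under IL-6. Without that library the numbers below 0 were 19, 21 and 29. Of the 11 roles, 4 held at least 1 gene with an unadjusted p under 0.05 for TGF-β against vehicle, and 5 did for IL-4+IL-13.

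The genes around this machinery gave a like picture. A list of 70 partners, all tested, held exchangers, mitochondrial uptake genes, regulators of stores and pumps, buffers and sensors, calcium-dependent kinases, and phospholipase C and TRPC genes. None was called in any of the 4 comparisons, in edgeR or in DESeq2. At an unadjusted p under 0.05, the partners higher and lower than vehicle were 2 and 5 for TGF-β, 1 and 4 for IL-4+IL-13, and 1 and 0 for IL-6, and between the cytokines they were 6 and 4. The shares of all rows were 2.42% and 4.87%, 4.42% and 4.68%, 2.32% and 2.44%, and 5.04% and 7.2%.

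Under TGF-β, PLCG2, a phospholipase C that makes IP3, had a log2 fold change of -0.54 and was lower in 6 of 6 batches (adjusted p = 0.0881). JPH2, a junctophilin that ties the reticulum to the plasma membrane, was at -0.71 (adjusted p = 0.246). Under IL-4+IL-13 the sodium-calcium exchanger SLC8A1 was at 0.34 and higher in 6 of 6 batches (adjusted p = 0.0967), its mitochondrial relative SLC8B1 was at -0.35 (adjusted p = 0.312), and JPH2 was at -0.60 (adjusted p = 0.351). Under IL-6 the smallest p values belonged to SMDT1, a uniporter subunit (0.29), the exchanger SLC24A3 (-0.53) and the phospholipase PLCB4 (-0.33), each with an adjusted p of 0.85.

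SLC8A1 was the 1 partner of 70 to pass an adjusted p under 0.05 between the cytokines, where 2.98% of all rows did, and it is named for that comparison after its values were seen. It was lower under TGF-β than IL-4+IL-13 in 6 of 6 batches, with a log2 fold change of -0.40 (-0.58 to -0.22) and an adjusted p of 0.0112 in edgeR's test, which ran from 0.00237 to 0.0665 with single batches left out.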

How the data were processed

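Poly(A) RNA was sequenced on an Illumina sequencer, trimmed with Trimmomatic 0.30 and aligned to GRCh38.p14 by the authors' sequencing provider. The aligner, the counter and the use of strand are not given in the sources used here. The deposited values are raw whole-number counts per gene and library, and the authors tested them with DESeq2. No value of the authors' own comparisons was used.

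From the counts, rows with a total of 10 or more were kept (29377 of 36468) and the 44 genes were taken as the first row of each symbol. The genes, lists and comparisons were chosen with earlier results of these data known. Differences were fitted with edgeR 4.0.16 (quasi-likelihood, robust, TMM factors) in R 4.3.3, with batch and treatment as terms over all 24 libraries. P-values are two-sided and adjusted by Benjamini-Hochberg over all rows. A standard error is the log2 fold change divided by the square root of F, and intervals are 95%. Levels are log2 of counts divided by DESeq2 size factors plus a pseudocount of 1. Levels between genes used the union of annotated exons as length.

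Libraries were paired by the batch number of the labels. Deviations from the group means correlated with a median of 0.564 over 36 same-batch pairs and of -0.161 over 240 other pairs.

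Genes named were CACNA1B, CACNA2D1, the leading gene of each role in vehicle, the 8 with the smallest p against vehicle in each comparison, and any called. Partners named were the 3 with the smallest p against vehicle in each comparison, of which 1 is not reported here. Tested on simulated data with 200 changed genes among 29377, the fit recovered 83% of those changed by 1.5 log2 units and 95% of those changed by 3 for TGF-β against vehicle, with 2 false calls. Alternatives were DESeq2 1.42.0, other size factors and filters, no batch term, fewer groups, and single batches or vehicle libraries left out. Upstream sequences are RefSeq, GRCh38.p14.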

Additional observations from a re-analysis of the deposited data

Results flagged for a closer look

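In a comparison of the extreme library of each group with its neighbours, 6 of 88 groups of 6 libraries tested held a library far from the others (6.82%, where chance alone marks about 1 in 20). All levels here are log2 of the normalized count plus 1. ATP2B3 was at 8.91 in the TGF-β library of batch 2 and at 9.31 in the IL-4+IL-13 library of batch 2, below the rest of each group. CACNA1S was at 0.0 in the IL-4+IL-13 library of batch 6, where its count was 0. CACNG4 was at 11.6 in the vehicle library and at 11.5 in the TGF-β library of batch 1, both low. STIM1 was at 12.19 in the vehicle library of batch 1, which was high. Of these 6, 3 came from batch 1, in which the neuronal markers were lowest, and 2 from batch 2.

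ITPR3 differed between the cytokines by a test of the difference itself: its log2 fold change for TGF-β against IL-4+IL-13 was 0.66 (edgeR adjusted p = 0.0185, higher in 6 of 6 batches).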

How the results depend on the processing

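The count of genes called was 0 in every comparison under every alternative run, including the fit with no batch pairing, in which the replicate block was dropped, and the count of partners called was 0 likewise. The number of genes on one side of vehicle in every batch was 2 under TGF-β, 1 under IL-4+IL-13 and 0 under IL-6. With single batches left out it ran from 2 to 8, from 2 to 8 and from 0 to 2, as fewer batches must agree, and without the vehicle library of batch 2 it was 8, 2 and 1. Shares of all rows for these left-out counts are not given here. The median level of the 44 genes was 3.59 CPM per kilobase with the union of exons and 4.48 with the longest transcript. Direction was followed for 25 fold changes, the 8 with the smallest p in each comparison against vehicle and ITPR3 between the cytokines. It was kept in all 442 alternative values. The 25 were picked on these same data and the alternatives reuse these libraries, so a kept direction carries little weight. Of the 442, 6 missed the threshold, all of ITPR3 between the cytokines. They were those without batches 1, 3, 5 or 6, with the IL-6 libraries left out, and with no replicate block (0.68, adjusted p = 1.0). Genes passing an adjusted p under 0.05 between the cytokines were 0 with no block, with 18 libraries and without batches 3, 5 or 6, 2 in DESeq2, with a mean count of 10 or more, and without batch 2 or its vehicle library, 3 in DESeq2 on batches 2 to 6 and 5 without the vehicle libraries of batches 2 and 4. Without batch 1 the 1 gene passing was ORAI3. The last 2 fits and the summing of rows of a symbol were chosen after seeing the data. Over all rows, adjusted p under 0.05 was met by 102, 186, 0 and 874 rows in edgeR (TGF-β, IL-4+IL-13, IL-6, between cytokines), by 504, 574, 132 and 1572 in DESeq2, and by 0, 13, 0 and 51 with no block. CACNA1S, with a mean count of 18.5, had wide intervals. Intervals also reached beyond 1 for CACNA2D3 under IL-4+IL-13 and for RYR2 and RYR3 under IL-6. Their mean counts were 1301, 856 and 530.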
